A study of Mus musculus with 13 samples.

Results

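Expression of 10 genes, for serine synthesis and other targets of the transcription factor ATF4, was measured after knockdown of the RNA-binding protein YBX3. The cells were C2C12 myoblasts, an established mouse skeletal muscle line. The genes were chosen by symbol from the 55642 genes of the deposited table, as genes of the response to amino acid shortage. The choice was made with earlier results of these data known. All 10 passed the filter on low counts that kept 16848 genes. Cells were reverse transfected, using RNAiMAX, with siRNAs that target YBX3 (YBX3 KD) or no transcript (control KD). Proliferating (0 day) myoblasts stayed in medium with fetal bovine serum, and differentiating (1 day) myoblasts spent the last 24 h in medium with horse serum instead. All media held glutamine, and all RNA was taken 48 h after transfection. There were 13 libraries, 4 of each KD at 0 day (replicates A to D), 2 of control KD at 1 day (C and D) and 3 of YBX3 KD at 1 day (B, C and D). The labels call them biological replicates and do not say more about how the cultures were kept apart.

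Phgdh, Psat1 and Psph encode the consecutive enzymes that turn the glycolytic intermediate 3-phosphoglycerate into serine. Shmt2 and Mthfd2 work in mitochondria and pass the side chain carbon of serine to folate. Asns makes asparagine from aspartate and glutamine, and Aldh18a1 catalyses the first steps from glutamate to proline. When amino acids run short, the kinase GCN2 phosphorylates eIF2α, translation of the transcription factor ATF4 rises, and ATF4 raises transcription of these enzymes. The same factor raises Sesn2, which holds mTORC1 in check when leucine is low, Chac1, which breaks down glutathione, and Trib3, a pseudokinase that restrains ATF4. An mRNA count shows neither ATF4 protein nor its activity.

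ATF4 acts with C/EBP proteins at a composite DNA element. The letters TGATGNAA were searched on both strands of 300 bases at each start site, from 250 before it to 50 after, using RefSeq promoters on GRCm38.p6. All 10 genes had a window and 3 of them held the letters, a share of 30%, against 2.88% of the 10840 symbols of tested genes with a window and 4.51% of all 27025 symbols. The share was not particular to these genes. Of the lists used below, 6 of 15 other ATF4 targets with a window (40%) held the letters. So did 2 of 14 sensors and transcription factors of the integrated stress response (14.3%). The following stretches are shown because they are the matches among the 10 genes. The capitals mark the element, each is read 5′ to 3′ on the strand of its gene, and the places are exact matches on GRCm39.

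Asns: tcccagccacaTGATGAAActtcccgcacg

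Chac1: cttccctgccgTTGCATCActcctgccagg

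Trib3: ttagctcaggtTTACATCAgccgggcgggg

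The Asns stretch lay at chr6:7693214-7693243 (minus strand), and its element began 23 bases before the start site. The Chac1 stretch lay at chr2:119181519-119181548 (plus strand), with the element on the opposite strand and its first letter 193 bases before the start site. In Trib3 the stretch was chr2:152185948-152185977 (minus strand), and the element, again on the opposite strand, began at transcribed base 15. In all 3 genes the RefSeq start site lies inside the gene span given below, and not at its end. The E-box CACGTG, which reads alike on both strands and does not overlap the first element, was found only in the Aldh18a1 window among the 10 genes, while 11.3% of tested symbols held it. A match is a description of letters, and its absence from the other windows says nothing about elements elsewhere in those genes. The log2 fold changes of these 3 genes upon YBX3 KD were -0.31 (Asns), 0.13 (Chac1) and -0.12 (Trib3), and none passed the test described below.

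The libraries held 33451547 to 71811371 counts. Ybx3 itself checked the labels. It stood at 265 to 347 CPM (counts scaled to the library total with TMM factors) in the 6 control KD libraries and at 28.7 to 71.5 CPM in the 7 YBX3 KD libraries, with a log2 fold change of -2.81 ± 0.167 (SE) and an adjusted p of 4.31e-06. Fold changes over both days come from edgeR's quasi-likelihood test with the day as a term, p-values were adjusted by Benjamini-Hochberg over all 16848 genes, and a gene passed at an adjusted p under 0.05. The myoblast factor Pax7 was at 0.179 CPM or less and Myog, which turns on early in differentiation, at 0.0523 to 3.46 CPM, while the 6 myoblast markers together ran from 535 to 772 CPM. Little of that sum came from Pax7 or from Myod1, whose low levels are given below. It rests on the other markers listed, Myf5, Des, Cdh15 and Itga7. None of the 9 differentiation markers tested, of 11 listed, passed in the step from 0 day to 1 day in either KD, and their median log2 step was -0.55 in control KD and 0.20 in YBX3 KD. Summed markers of blood, endothelial and epithelial cells stayed at 8.53 CPM or less in each list, and those of fibroblast and bone cells at 42.7 to 76.1 CPM in control KD and 30.1 to 82.6 CPM in YBX3 KD. Their part in the results was not tested.

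Levels between genes can be compared only per length, here as mean CPM per kilobase of the canonical transcript over the 13 libraries. Phgdh (131) and Shmt2 (123) were the most abundant, followed by Psat1 (71.2), Mthfd2 (35.6) and Aldh18a1 (31.1). Asns (16.1), Psph (15.1), Sesn2 (10.1) and Chac1 (9.10) were lower, and Trib3 (4.26) was the lowest. Between libraries the CPM of single genes had a coefficient of variation of 12.5% (Aldh18a1) to 33.0% (Trib3), so the order within the pairs Phgdh and Shmt2, Mthfd2 and Aldh18a1, Asns and Psph, and Sesn2 and Chac1 lay within that spread. The enzyme mRNAs were thus well counted, at 1121 reads or more per library, while Trib3 had 253 to 655.

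Over both days, the mRNAs of all 7 enzymes were lower on average in YBX3 KD, and that of Sesn2 was higher. Psat1, at 74.8% of its control mean, and Sesn2, at 136%, passed the test, one in each direction. The other 8 genes did not pass. In bulk RNA, less RNA per cell cannot be told apart from fewer cells that express a gene. The median log2 fold change of the 7 enzymes was -0.29 and that of all 10 genes -0.21, against 0.00215 over all genes tested. Among all genes tested 1.09% passed as lower and 1.5% as higher, beside which stand 1 of 10 members in each direction. Because the members were chosen with earlier results of these data known, these medians and shares describe the list and do not test it.

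**Figure D1:**
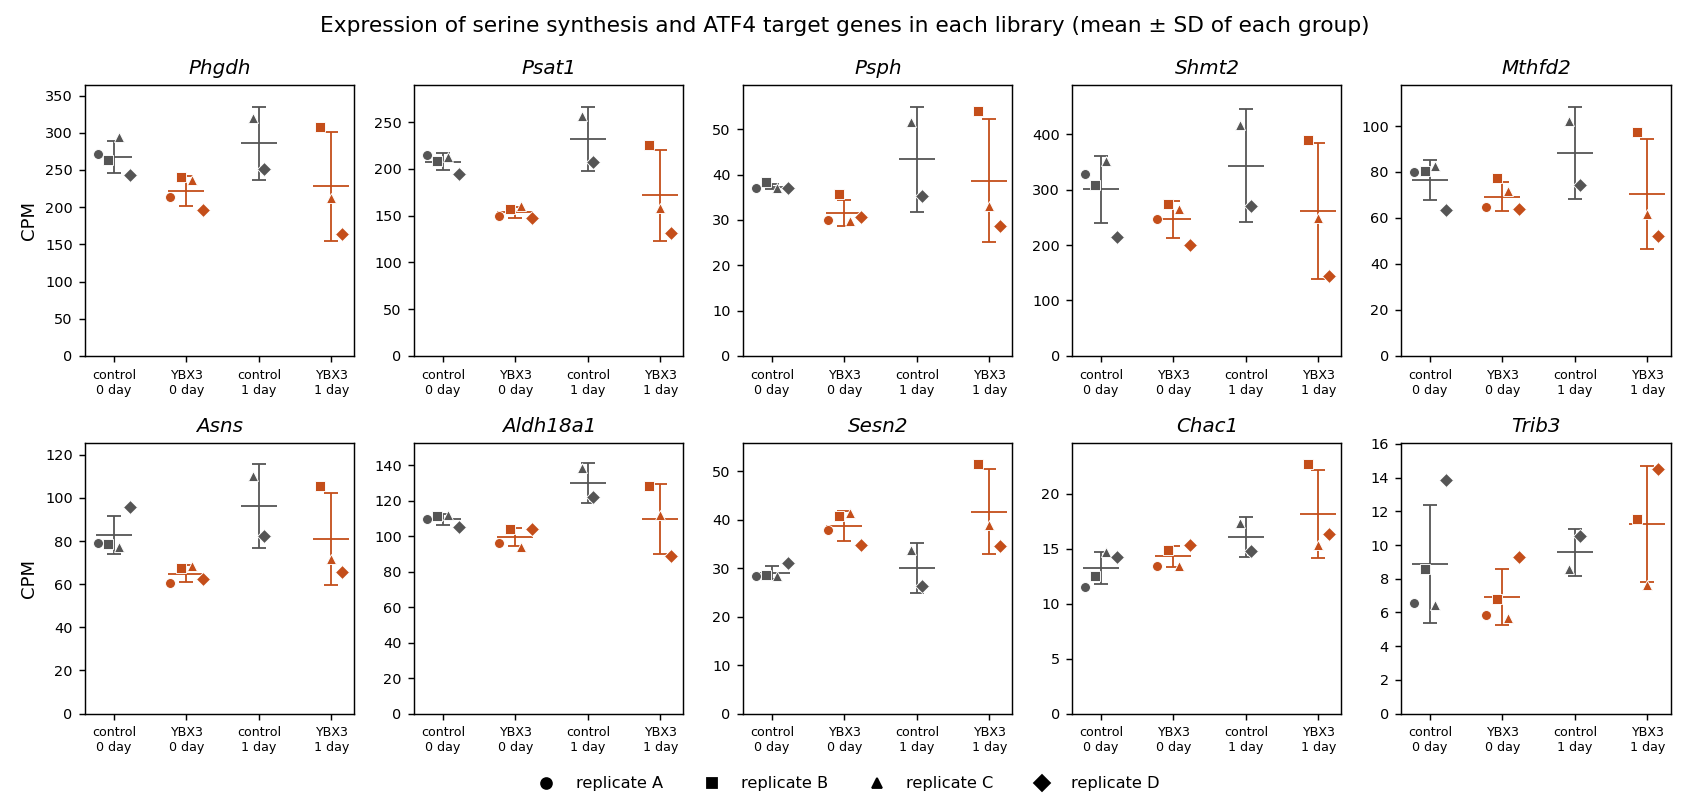
Each panel plots the CPM of 1 gene (y axis, from 0) in the 13 libraries by KD and day (x axis), with a symbol for each replicate letter and a bar for the mean ± SD of the group. Sesn2 in the 7 YBX3 KD libraries (34.7 to 51.5 CPM) lay above all 6 control KD libraries (26.4 to 33.7 CPM), while for the enzymes YBX3 KD at 1 day replicate B reached the control range.

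Psat1, phosphoserine aminotransferase, makes phosphoserine in the middle step of the pathway. The gene lies at chr19:15882039-15924701 (GRCm39, minus strand) and its canonical transcript has 9 exons. At 0 day it was at 215, 208, 213 and 195 CPM in control KD replicates A to D, and at 150, 157, 160 and 147 CPM in the corresponding YBX3 KD replicates. At 1 day it was at 256 and 208 CPM in control KD replicates C and D, and at 226, 158 and 132 CPM in YBX3 KD replicates B, C and D. All YBX3 KD libraries but 1 lay below every control KD library, the exception being replicate B at 1 day, which has no control KD partner. For 1.08% of all genes tested all 7 YBX3 KD libraries lay below. The share of genes with only some of the 7 below, as here and for the other enzymes, was not counted. The log2 fold change was -0.43 ± 0.104 (SE), with a 95% interval of -0.66 to -0.21 and an adjusted p of 0.0461. With the replicate letter as a block it was -0.47 ± 0.0853 (adjusted p = 0.0109). The call sits near the threshold. When each of the 13 libraries was left out in turn, Psat1 passed only without control KD 0 day replicate D, YBX3 KD 1 day replicate B or YBX3 KD 1 day replicate D, with log2 fold changes of -0.52 to -0.38 and adjusted p from 0.00784 to 0.124. It was also lost with edgeR's legacy fit, with the title number as a block and without a filter on low counts.

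Phgdh, which carries out the first and committed step, lies at chr3:98220484-98255047 (GRCm39, minus strand, 12 exons). In control KD it ran from 243 to 320 CPM with a median of 267, and in YBX3 KD from 164 to 308 CPM with a median of 214. Again 6 of the 7 YBX3 KD libraries were below every control KD library. The log2 fold change of -0.29 ± 0.125 (SE) did not pass (adjusted p = 0.255), but with the replicate letter as a block it was -0.34 ± 0.0917 and passed (adjusted p = 0.0436). In that fit 4.63% of all genes were lower and 5.97% higher, and 2 and 1 of the 10 members.

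Psph, the phosphatase of the last step, lies at chr5:129841925-129864513 (minus strand, 8 exons). Its control KD libraries held 35.2 to 51.5 CPM (median 37.1) and its YBX3 KD libraries 28.7 to 54.1 CPM (median 30.5), so that 5 of these 7 lay under every control KD value while 1, replicate B at 1 day, lay over them all. The log2 fold change was -0.22 ± 0.136 (SE), with a 95% interval of -0.51 to 0.08 and an adjusted p of 0.47 (0.126 with the block, and 0.0375 in a fit of the 6 pairs of a letter and day alone). In the fit of the pairs 1094 genes of the whole table passed.

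For the mitochondrial pair the spread between libraries was wide. Shmt2, serine hydroxymethyltransferase, at chr10:127352266-127358323 (minus strand, 12 exons), was at 215 to 416 CPM in control KD (median 318) and at 145 to 389 CPM in YBX3 KD (median 249). Its log2 fold change was -0.33 ± 0.2 (SE, 95% interval -0.76 to 0.11, adjusted p = 0.455). With the replicate letter as a block it was -0.39 ± 0.124 (adjusted p = 0.0675), and with DESeq2 and the block it passed (adjusted p = 0.0189). In the latter fit 2961 genes of the whole table passed. Mthfd2, a methylenetetrahydrofolate dehydrogenase, at chr6:83282673-83302890 (minus strand, 8 exons), was at 63.7 to 102 CPM in control KD (median 80.2) and at 52.0 to 97.5 CPM in YBX3 KD (median 64.6). Its log2 fold change was -0.21 ± 0.138 (SE, 95% interval -0.51 to 0.09, adjusted p = 0.482), and -0.26 ± 0.102 with the block (adjusted p = 0.122). For each gene only 2 of the 7 YBX3 KD libraries were below every control KD library.

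Asns and Aldh18a1 both draw on glutamine or its product glutamate. Asns, asparagine synthetase, at chr6:7671667-7728461 (minus strand, 12 exons), was at 77.5 to 110 CPM in control KD (median 80.8) and at 60.6 to 105 CPM in YBX3 KD (median 67.6). Every YBX3 KD library but replicate B at 1 day was below every control KD library. The log2 fold change was -0.31 ± 0.113 (SE, adjusted p = 0.173), and its 95% interval of -0.56 to -0.07 did not include 0. Before adjustment 2797 of the 16848 genes tested had a p under 0.05. Of the 13 fits that each left out 1 library, Asns passed only without YBX3 KD 1 day replicate B (-0.40, adjusted p = 0.0331). Its adjusted p in these fits ran to 0.356. Aldh18a1, delta-1-pyrroline-5-carboxylate synthase, at chr19:40538698-40576949 (minus strand, 19 exons), was at 105 to 138 CPM in control KD (median 112) and at 88.9 to 128 CPM in YBX3 KD (median 104). It had the smallest enzyme difference, -0.18 ± 0.0771 (SE, adjusted p = 0.265), and 5 of its 7 YBX3 KD libraries were below every control KD library.

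Sesn2, sestrin 2, was the member whose groups did not overlap. It lies at chr4:132219335-132237815 (GRCm39, minus strand, 10 exons). At 0 day it was at 28.4, 28.5, 28.4 and 31.1 CPM in control KD replicates A to D, and at 37.9, 40.7, 41.5 and 34.8 CPM in YBX3 KD. At 1 day it was at 33.7 and 26.4 CPM in control KD replicates C and D, and at 51.5, 38.9 and 34.7 CPM in YBX3 KD replicates B, C and D. The lowest of the YBX3 KD values exceeded the highest of the control KD values, as for 0.95% of all genes tested, and the opposite held for 1.08% of genes and no member. The log2 fold change was 0.44 ± 0.0952 (SE), with a 95% interval of 0.23 to 0.64 and an adjusted p of 0.0313 (0.0166 with the letter as a block). When each library was left out in turn the adjusted p ran from 0.0154 to 0.0868 and passed in 5 of 13 fits, those without control KD 0 day replicate D, YBX3 KD 0 day replicate D or a YBX3 KD 1 day replicate. It was also lost without a filter on low counts. The related sestrin genes Sesn1 (log2 fold change -0.09, adjusted p = 0.865) and Sesn3 (0.11, adjusted p = 0.821) did not pass.

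Chac1, a gamma-glutamylcyclotransferase, at chr2:119180757-119184866 (plus strand, 3 exons), was at 11.5 to 17.3 CPM in control KD (median 14.5) and at 13.4 to 22.7 CPM in YBX3 KD (median 15.3). Its log2 fold change was 0.13 ± 0.103 (SE, adjusted p = 0.557), with a 95% interval of -0.09 to 0.36. Trib3, at chr2:152179337-152191958 (minus strand, 4 exons), was at 6.47 to 13.9 CPM in control KD (median 8.57) and at 5.65 to 14.5 CPM in YBX3 KD (median 7.65). Its log2 fold change of -0.12 ± 0.225 (SE, adjusted p = 0.819) turned to 0.07 without control KD 0 day replicate D, and its 95% interval of -0.61 to 0.36 leaves room for either direction.

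**Figure D2:**
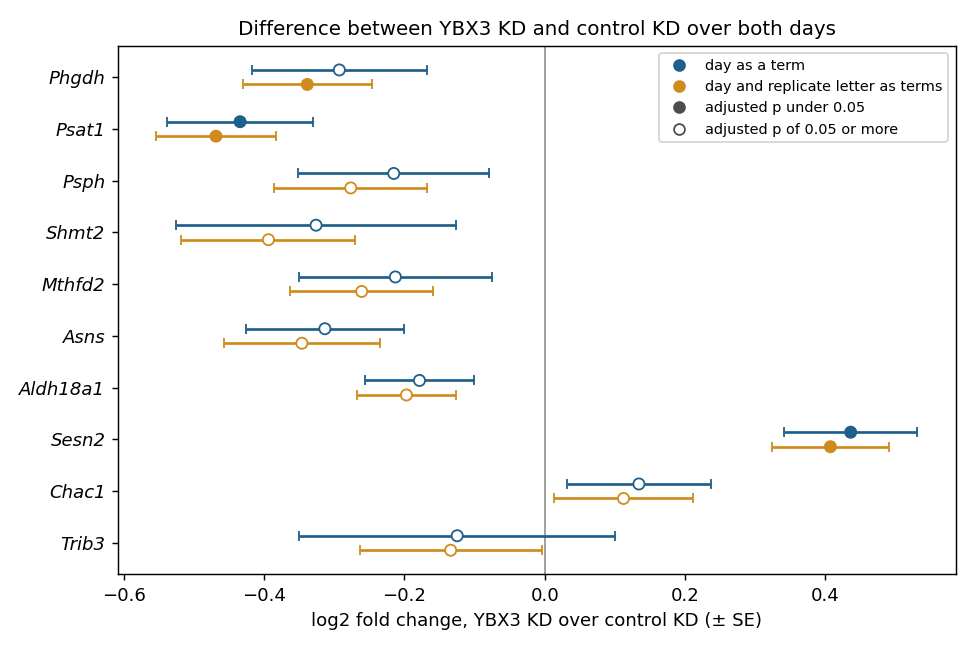
Points give each gene's log2 fold change of YBX3 KD over control KD over both days (x axis) with bars of ± 1 SE, from the fit with the day as a term and from the fit with the replicate letter added. Filled points passed at an adjusted p under 0.05: Psat1 (-0.43) and Sesn2 (0.44) in both fits, and Phgdh (-0.34) in the fit with the letter.

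The study's thresholds ask for a fold change beyond 1.3 either way and for 0.001 as the limit of the adjusted p. Applied to the edgeR fit used here, they called no member, as against 0.113% of all genes. The study itself applied them to DESeq2 with p-values adjusted by independent hypothesis weighting, which was not run here. DESeq2 passed the same 2 members as edgeR, Psat1 (adjusted p = 0.00533) and Sesn2 (adjusted p = 0.00179). It called more genes throughout, 1179 of the 16848 tested against 436 by edgeR.

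The replicate letter allowed 6 comparisons within a letter and a day. The pairs show how far each gene's ratio varied. Phgdh, Psat1, Psph, Shmt2, Asns and Aldh18a1 were lower in YBX3 KD in all 6 pairs, and Sesn2 was higher in all 6. Of all genes tested 7.97% were lower and 9.37% higher in all 6 pairs. Psat1 had the narrowest range among the enzymes, with log2 ratios of -0.69 to -0.40. Mthfd2 was lower in 5 pairs and at 0.00320 in replicate D at 0 day. Aldh18a1 came close to 0 there too, at -0.01. Chac1 was higher in 4 pairs and lower in 2, and Trib3 was lower in 5 and higher, by 0.46, in replicate D at 1 day. In the 2 pairs at 1 day Shmt2 had log2 ratios of -0.74 (replicate C) and -0.91 (replicate D), against -0.41 to -0.10 in the 4 pairs at 0 day, but the difference between the days did not pass for any member.

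**Figure D3:**
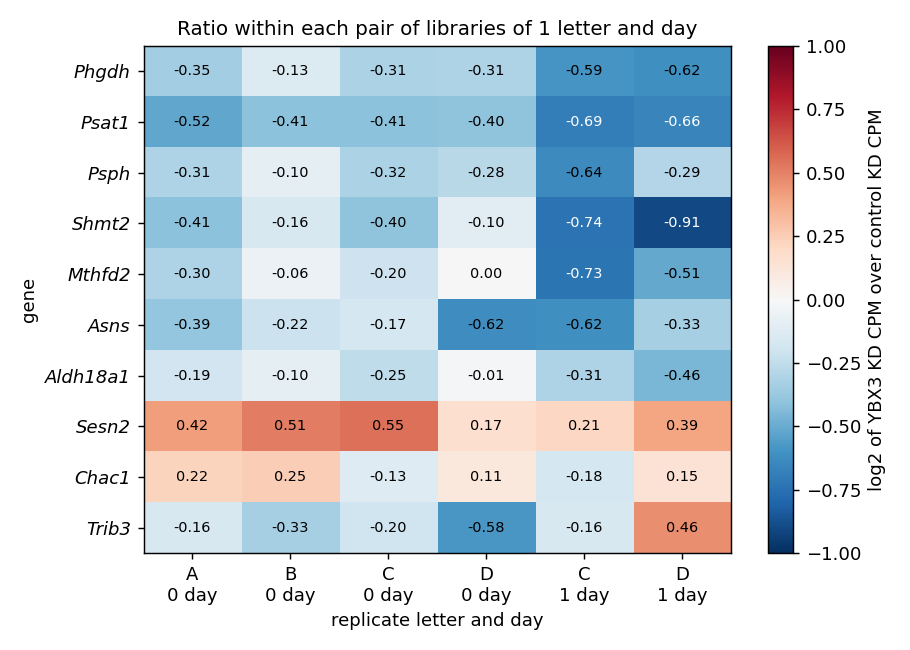
Each cell gives the log2 ratio of YBX3 KD CPM to control KD CPM for 1 gene (rows) in 1 pair of libraries that share a replicate letter and a day (columns), blue for lower and red for higher in YBX3 KD. Psat1 ranged from -0.69 to -0.40 and Sesn2 from 0.17 to 0.55, with 1 direction in all 6 pairs, while Chac1 and Trib3 changed direction between pairs.

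Within a single day no member passed. In proliferating myoblasts, with 4 libraries against 4, the log2 fold change was -0.43 ± 0.138 (SE, adjusted p = 0.22) for Psat1 and 0.42 ± 0.125 (SE, adjusted p = 0.188) for Sesn2. Here 5 members, Phgdh, Psat1, Psph, Asns and Aldh18a1, had every YBX3 KD library below every control KD library, as 4.27% of all genes did, and Sesn2 had every YBX3 KD library above, as 4.83% did. The gap was wide for Psat1, at 195 to 215 CPM in control KD and 147 to 160 CPM in YBX3 KD, and narrow for Aldh18a1, at 105 to 112 and 94.1 to 104 CPM. The remaining 8 members had values from -0.35 (Asns) to 0.11 (Chac1), and the median of all 10 was -0.26, against -0.00422 over all genes. Of all genes 0.481% passed at 0 day. In differentiating myoblasts, with 3 libraries against 2, the values were -0.43 ± 0.176 (SE, adjusted p = 0.586) for Psat1 and 0.47 ± 0.163 (SE, adjusted p = 0.511) for Sesn2. The other members ran from -0.40 (Shmt2) to 0.24 (Trib3), the median of all 10 was -0.25, and 0.0712% of all genes passed. The 1 day values rest on few libraries: the median of the 10 was -0.48 without YBX3 KD replicate B and -0.03 without control KD replicate C. With the replicate letter as a block no member passed on either day. At 0 day Psat1 was then at -0.43 ± 0.109 (SE, adjusted p = 0.0651) and Sesn2 at 0.41 ± 0.107 (SE, adjusted p = 0.0734). At 1 day Psat1 was at -0.53 ± 0.146 (SE, adjusted p = 0.0812) and Sesn2 at 0.41 ± 0.145 (SE, adjusted p = 0.12). The other members ran from -0.62 (Shmt2) to 0.20 (Trib3) at 1 day with the block.

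The difference of the YBX3 KD effect between the days was tested directly. No member passed, nor did any of the genes tested (0% of 16848), though 477 genes had an unadjusted p under 0.05, none of them a member, and DESeq2 passed 2 genes. For Psat1 the difference, 1 day minus 0 day, was 0.00106 ± 0.224 (SE), and its 95% interval was -0.49 to 0.49, which reaches past the size of the effect itself. For Sesn2 the interval was -0.39 to 0.50. The estimates ran from -0.18 in Mthfd2 to 0.59 ± 0.45 (SE) in Trib3, each with an adjusted p of 1. With the replicate letter as a block they ran from -0.35 ± 0.244 (SE) in Shmt2 to 0.53 ± 0.218 (SE) in Trib3, and none passed.

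A day of differentiation medium gave no passing change in these genes. From 0 day to 1 day all 10 estimates were above 0 in both KDs. In control KD they ran from 0.05 (Sesn2) to 0.28 (Chac1) on the log2 scale, with a median of 0.20. In YBX3 KD they ran from 0.02 (Mthfd2) to 0.71 (Trib3), with a median of 0.15. No gene of the whole table passed in either step (0% of 16848 each by edgeR). Before adjustment 251 genes were under 0.05 in control KD, without any member, and 791 genes in YBX3 KD, with Chac1 and Trib3 among them. DESeq2 passed 6 and 4 genes. A single library decided the sign of the medians. Without control KD 1 day replicate C the first was -0.04, and without YBX3 KD 1 day replicate B the second was -0.05. Those 2 libraries held the highest value of their KD for 9 of the 10 members each.

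The enzyme mRNAs varied together from library to library. Over the 13 libraries the 21 pairs of enzymes had Pearson's r of 0.63 to 0.957 in log2 CPM, with a median of 0.852. After the means of the 4 groups were removed, r was 0.595 to 0.971, with a median of 0.876. Thus YBX3 KD 1 day replicate B was high and replicate D low for the enzymes as a set: Phgdh was at 308 CPM in the first and 164 CPM in the second, and Shmt2 at 389 and 145 CPM. Replicate D at 1 day had the lowest YBX3 KD value for 6 of the 7 enzymes. Sesn2 showed r of -0.298 to 0.152 with the enzymes over all libraries, and of 0.694 to 0.952 once group means were removed. Within a group its level thus ran with the enzymes, while between the KDs it was on the other side. Chac1 had r of 0.438 to 0.769 with the enzymes within groups. Trib3 stood apart, with r of -0.626 (with Shmt2) to 0.141 within groups. These correlations describe 13 libraries that share depth scaling and culture, and carry no test.

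**Figure D4:**
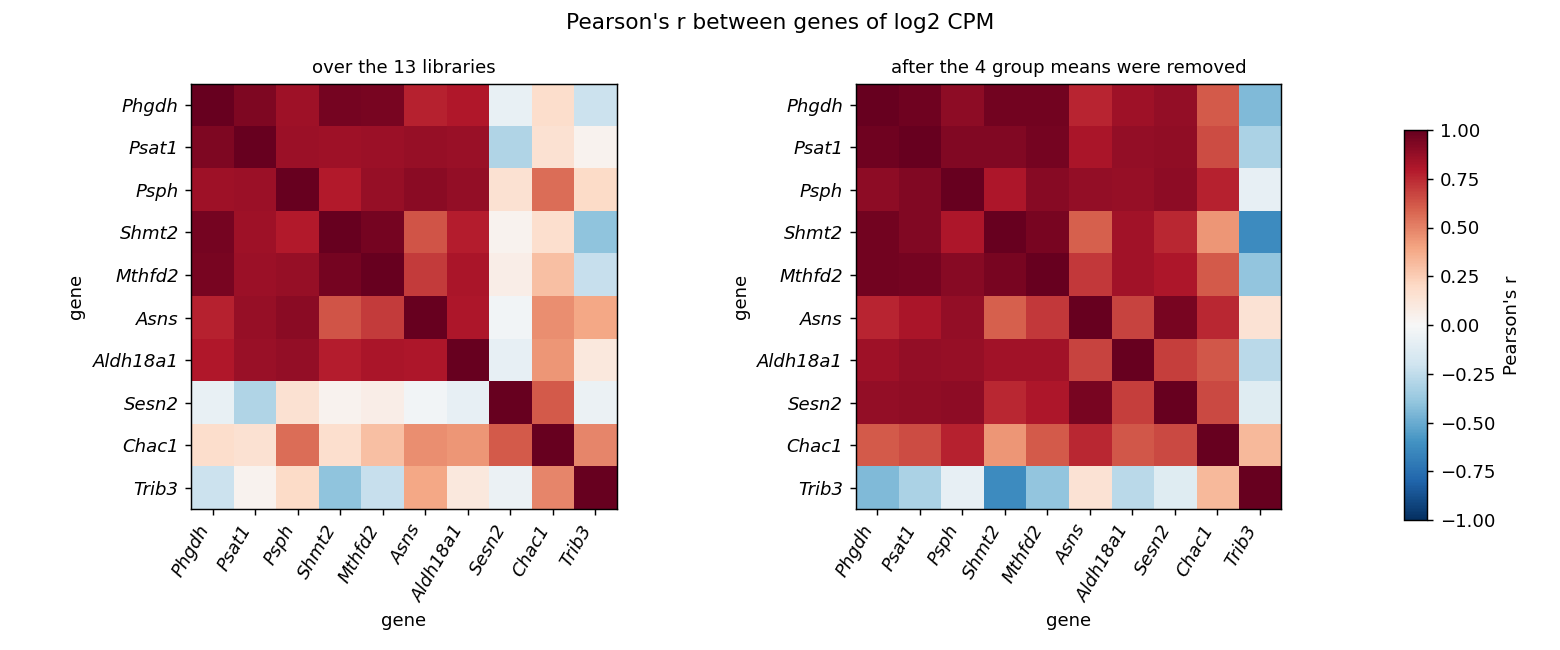
Pearson's r of log2 CPM between each 2 of the 10 genes (both axes), on the left over all 13 libraries and on the right after the 4 group means were removed. The 7 enzymes form a block of r from 0.63 to 0.957 on the left. Sesn2 joins it only on the right (0.694 to 0.952), and Trib3 in neither.

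Trib3 was highest in replicate D within each KD and day. It was at 13.9 and 9.28 CPM in replicate D at 0 day (control KD and YBX3 KD) and at 10.6 and 14.5 CPM at 1 day, while the other 9 libraries held 5.65 to 11.6 CPM. Ddit3, which encodes the stress factor CHOP, was likewise highest there within each KD and day, with 31.0 and 22.4 CPM in replicate D at 0 day and 18.2 and 32.4 CPM at 1 day. Ddit3 carries 2 identifiers in the annotation, and the longer was used here. Pycr1, a proline synthesis enzyme and ATF4 target, was too, at 24.4 and 13.8 CPM in replicate D at 0 day and at 12.2 and 24.0 CPM at 1 day. Atf4 went the other way in 2 of those libraries, with 211 CPM in control KD at 0 day and 195 CPM in YBX3 KD at 1 day, its lowest values of the 13. With all replicate D libraries left out, Psat1, Aldh18a1 and Sesn2 passed. So did many more genes of the whole table, 2278 against 436 with all libraries. Why replicate D differs was not tested.

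The 5 genes outside the list whose log2 CPM was most like the mean standardised level of the 10 members were Uqcrfs1 (Pearson's r = 0.930 over 13 libraries), Gars1 (0.918), Rnf187 (0.890), Cisd3 (0.885) and Eif2b5 (0.884). Uqcrfs1 encodes the Rieske iron-sulfur protein of complex III, Gars1 the glycyl-tRNA synthetase and Eif2b5 a subunit of the exchange factor for eIF2. Their log2 fold changes upon YBX3 KD were -0.15, -0.11, -0.16, -0.04 and -0.11, and none passed.

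Few genes of the wider network passed the same test. Atf4 mRNA was at 211 to 340 CPM in control KD (median 294) and at 195 to 306 CPM in YBX3 KD (median 279), with a log2 fold change of -0.12 (adjusted p = 0.686). Of 15 sensors and transcription factors of the integrated stress response none passed, the median was -0.02, and Ddit3 was at 0.16 (adjusted p = 0.778). With the letter as a block, Eif2ak1, the heme-regulated eIF2α kinase (-0.27, adjusted p = 0.0147), and Cebpg, an ATF4 partner (-0.30, adjusted p = 0.0199), fell. In that fit 4.63% of all genes tested passed as lower. Eif2ak4, which encodes GCN2, was at -0.02 (adjusted p = 0.873 without the block).

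Of 18 other serine, glycine and one-carbon enzymes none passed, with 11 estimates below 0 and 7 above, and a median of -0.06. With the block 2 fell, Mthfd1l, which makes formate in mitochondria (-0.43, adjusted p = 0.0139), and Gcsh, the carrier protein of the glycine cleavage system (-0.30, adjusted p = 0.0131). Beside them stand 4.63% of all genes tested that were lower with the block. Of 15 other enzymes of asparagine, glutamine and proline metabolism none passed, with a median of -0.09, and Pycr1 was at 0.07 (adjusted p = 0.932). With the block the mitochondrial aspartate aminotransferase Got2 fell (-0.19, adjusted p = 0.0378). Of 22 other ATF4 targets tested none passed in either fit, 14 were below 0 and 8 above, the median was -0.08, and the cystine transporter gene Slc7a11 was at -0.06 (adjusted p = 0.926).

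Among 5 paralogs of the stress effectors none passed (median -0.09). Trib2, a relative of Trib3, had the largest estimate at -0.98 (adjusted p = 0.0695), with 1.64 to 4.78 CPM in control KD and 1.20 to 2.23 CPM in YBX3 KD, and passed with the block (adjusted p = 0.0358). With the block 4.63% of all genes passed as lower and 5.97% as higher. Of 13 chaperones and helpers of the endoplasmic reticulum, which the unfolded protein response raises, Dnajb9 alone passed. It rose by a log2 fold change of 0.39 ± 0.0845 (SE, adjusted p = 0.0318), from 14.7 to 19.2 CPM in control KD to 18.4 to 23.8 CPM in YBX3 KD, while the median of the list was -0.03. None of the 7 genes of the Myc list passed, and their median was -0.20. Of the marker lists, Tek, an endothelial receptor, passed (1.82, adjusted p = 0.00913) at 0.318 CPM or less in every library. Myod1, the myoblast factor, was at 0.601 to 1.80 CPM in control KD and 1.15 to 3.32 CPM in YBX3 KD (1.09, adjusted p = 0.0666, with the block 0.0109). Alpl, a bone marker, passed as higher with the block (1.29, adjusted p = 0.0124, and 0.667 without it), at 1.20 CPM or less in every library.

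**Figure D5:**
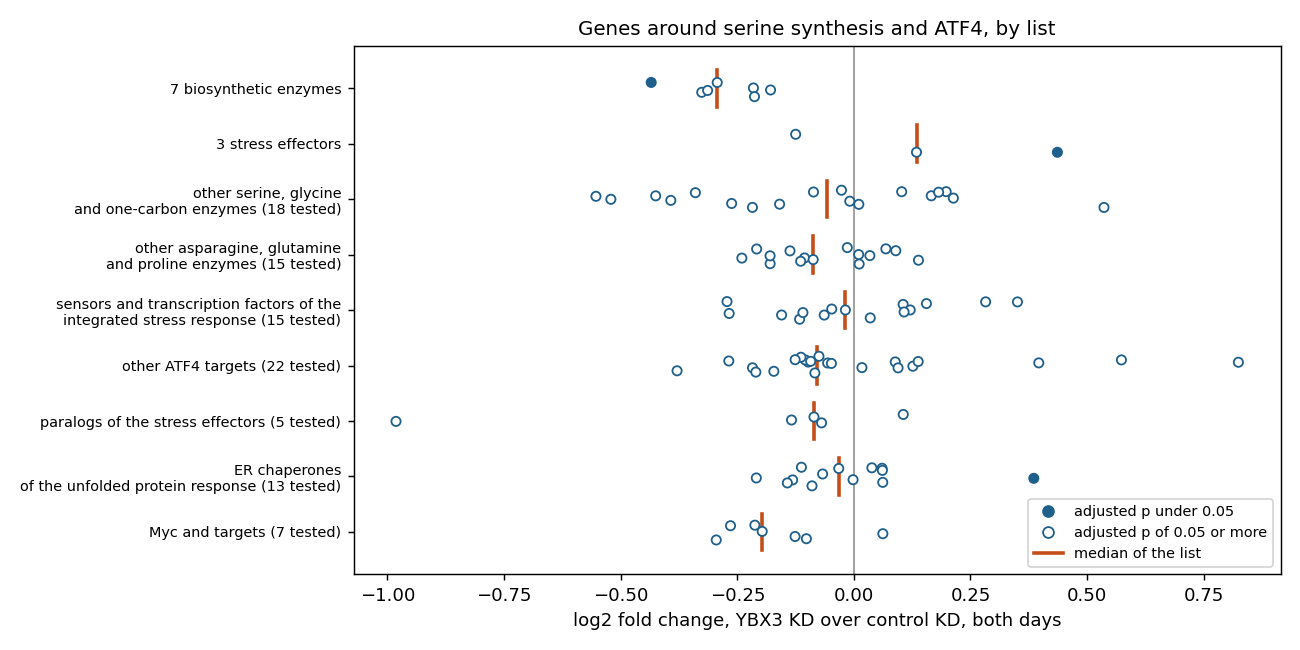
Each point is 1 tested gene's log2 fold change of YBX3 KD over control KD over both days (x axis), by list (y axis), filled where the adjusted p was under 0.05, and the vertical mark is the list's median. The median lay at -0.29 for the 7 enzymes and between -0.20 and -0.02 for the 7 lists around them, and Psat1, Sesn2 and Dnajb9 were the genes that passed.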

How the data were processed

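RNA of 13 C2C12 libraries was prepared with a stranded mRNA kit. The authors quantified reads with Salmon against GRCm39 and Gencode M30 and deposited gene-level estimated counts, which are whole numbers and not normalized. A count of mRNA does not separate synthesis from decay. The table was analysed in R 4.3.3 with edgeR 4.0.16 (filterByExpr on the 4 groups, TMM, glmQLFit without the legacy option, glmQLFTest) and DESeq2 1.42.0 as an alternative. P-values were adjusted by Benjamini-Hochberg. The SE of an edgeR log2 fold change was its absolute value divided by the square root of the test's F statistic. The 95% intervals used that SE and the t distribution with the test's degrees of freedom. The KDs were compared over both days with the day as a term, and contrasts within and between days came from a model of the 4 groups. Symbols and positions are from GENCODE vM39 (GRCm39), which matched 54969 of 55642 identifiers.

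The description's replicate letters and the title's numbers disagree at 1 day. Deviations from the group means correlated over 0.1 in 16 of 16 pairs that share a letter (0.117 to 0.73) and in 8 of 16 that share a title number, so the letters were taken to pair the samples.

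All 10 members were named, and of the other lists genes that passed (at most 5 each), Atf4, Ddit3, Pycr1 and Slc7a11. Genes that passed only with the block, the paralogs Sesn1, Sesn3 and Trib2, Eif2ak4, Myod1, Myog and Pax7 were added after their values were seen. The members and lists were chosen with earlier results of these data known. Alternatives were another normalization, no filter, blocks, the study's thresholds, fewer libraries and, added after the data were seen, the legacy fit, DESeq2 with the block and the 6 pairs alone.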

Additional observations from a re-analysis of the deposited data

Results flagged for a closer look

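Single libraries stood apart from their group, by a gap to the next library that took up more of the group's range than Dixon's 95% limit allows, in 12 cases over 40 sets of 4, 6 or 7 libraries. About 1 set in 20 is expected to be picked out by chance, and sets of the same KD overlap. Sets of different genes are not independent either, because the enzyme mRNAs varied together, so 1 library can be picked out for several genes. The sets of 6 and 7 libraries also mix both days. In control KD at 0 day, replicate D was apart with 96.0 CPM of Asns and 31.1 CPM of Sesn2 (both high) and 63.7 CPM of Mthfd2 (low). Replicate B at 0 day was the high one for Psph in both KDs, with 38.3 CPM after the control siRNAs and 35.7 CPM after those to YBX3. Of the 7 YBX3 KD libraries, replicate B at 1 day was apart with 105 CPM of Asns, 22.7 CPM of Chac1, 226 CPM of Psat1, 54.1 CPM of Psph and 51.5 CPM of Sesn2, all high. Of the 6 control KD libraries, replicate C at 1 day was apart with 256 CPM of Psat1 and 51.5 CPM of Psph, both high.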

How the results depend on the processing

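The count of members that passed over both days, 2, was 2 with DESeq2 and with relative log expression factors, 3 with the letter as a replicate block and 3 without replicate D. It was 1 with the title number as a replicate block, 1 with the legacy fit, 0 without a filter and 0 at the study's thresholds. It was 5 with DESeq2 and the letter block (Phgdh, Psat1, Shmt2, Asns and Sesn2) and 6 in the 6 pairs alone (these and Psph), and leaving out single libraries gave 0 to 3. At 0 day the count of 0 became 1 without replicate D, 1 when only the 2 groups were fitted and 2 with DESeq2 and the letter block. At 1 day it became 4 with DESeq2 and the letter block. For the difference between the days and both day steps it was 0 in all alternatives run. In edgeR the letter block changed no member's call beyond Phgdh over both days. At 0 day 81 genes of the whole table passed, against 1014 without replicate D, 70 when only the 2 groups were fitted, 521 by DESeq2, 481 with the letter block and 1348 with both. At 1 day 12 genes passed, against 144 by DESeq2, 31 with the letter block and 2367 with both. Over all genes 436 passed over both days, against 1179 by DESeq2, 1785 with the letter block, 2961 with both, 2278 without replicate D, 1094 in the pairs alone, 212 without a filter, 19 at the study's thresholds and 193 to 926 without single libraries.

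Signs of small values turned. With single libraries left out, Trib3 over both days ran from -0.235 to 0.066, at 1 day Psph from -0.486 to 0.142 and Chac1 from -0.0177 to 0.304, and the between-day difference of Mthfd2 from -0.478 to 0.0869. The control KD step of Sesn2 ran from -0.151 to 0.218 and was -0.00218 with the title number as block. The YBX3 KD step of Mthfd2 ran from -0.282 to 0.201 and was -0.0183 with the letter block, -0.0774 with the title number and -0.019 with DESeq2 and the letter block. The members' median between-day difference, 0.0288, ran from -0.232 to 0.225 and was -0.0797 with the letter block, -0.0211 without replicate D and -0.0776 with DESeq2 and the letter block. The median steps ran from -0.0396 to 0.364 in control KD and -0.0487 to 0.346 in YBX3 KD. The causes were not tested. With 2 control KD libraries at 1 day, contrasts there lean on the spread of the other groups. The members held 253 counts or more in every library, and the effect of depth on the calls was not tested.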
